A study of Drosophila melanogaster with 18 samples.

Results

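The comparison described here is between 2 knock-downs made in the same background of mitochondrial stress: 3 arrays titled TFAM o/e, Pnt RNAi against 3 titled TFAM o/e, Aop RNAi, chosen by their titles from the 18 arrays of the series. Each array holds RNA from the whole central nervous system (CNS) of 20 wandering Drosophila larvae in the third instar, pooled. All larvae of both groups carried the pan-neuronal driver nSyb-Gal4 and UAS-TFAM3M, with 1 RNAi transgene, UAS-Pnt RNAi #JF02227 or UAS-Aop RNAi #3166R1. The 2 RNAi lines were made in different collections. The groups may thus also differ in the transgene markers and chromosomes that each line brought in. The other genotypes, with 3 arrays each, were nsybGal4/+ controls, nsybGal4>UAS-TFAM3M (TFAM o/e), and each RNAi transgene driven without TFAM. The driver is active in post-mitotic neurons, so glia, neuroblasts and other cells of the dissected tissue contribute RNA in which no knock-down was driven, and each knock-down rests on 1 RNAi line. In such bulk RNA, fewer cells of a type and less RNA per cell cannot be told apart. The files give no sign of which arrays were grown or hybridised together.

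TFAM packages mitochondrial DNA, and its overexpression in neurons is used here to disturb mitochondrial function. Pnt (pointed) and Aop (anterior open, also called Yan) are the ETS domain transcription factors through which the Ras-ERK pathway acts on its target genes. In the textbook scheme ERK turns Pnt into an activator and removes Aop, a repressor, so that knocking down one or the other would be predicted to move shared target genes in opposite directions. Setting the 2 knock-downs against each other asks where the CNS transcriptome of TFAM o/e larvae depends on which of the factors was targeted.

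The 6 arrays had medians between 5.08 and 5.42 on the log2 scale, 46.4% to 49.4% of their probe sets lay under log2 5, and 3.78% to 6.34% were at 0. Over the 8581 probe sets with a mean log2 of 6 or more (45.7% of the 18769 tested), arrays of the same group correlated at 0.9554 to 0.9852 and arrays of different groups at 0.9559 to 0.9842, so the groups did not separate as wholes. The number of arrays, 3 a group, limits the precision.

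The targeted genes were examined first. Where the title names TFAM o/e and Pnt RNAi the pnt probe set read 9.18, 9.28 and 9.16, and where it names TFAM o/e and Aop RNAi it read 8.53, 8.25 and 8.38. Signal from the targeted gene was thus higher in every array labelled as its knock-down, by 0.82 (standard error 0.19, limma adjusted p = 0.162, and 0.0333 blocked on the replicate number). The block rests on a pairing read from these same arrays, so its p-values here and below are no independent support. The aop probe set read 10.28, 10.88 and 10.77 in the Pnt-labelled arrays and 10.54, 10.51 and 10.94 in the Aop-labelled ones. The aop groups overlapped, with a difference of -0.02 and a 95% interval from -0.35 to 0.31. The position of either probe set relative to the hairpin's target is not known here. Neither target's own signal therefore checks its label (y and v, described below, bear on the titles too), and "Pnt-labelled" and "Aop-labelled" stand below for the arrays as titled, each direction depending on those titles. TFAM itself read 12.58, 11.84 and 12.03 in the Pnt-labelled arrays against 12.19, 12.05 and 12.06 in the Aop-labelled ones, overlapping, with a difference of 0.05 (95% interval -0.30 to 0.40) and control arrays between 10.49 and 10.76.

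Few genes passed the test between the knock-downs. Of 18769 probe sets, 28 (0.149%) passed limma's test at an adjusted p of 0.05, 15 higher (0.0799%) and 13 lower (0.0693%) in the Pnt-labelled arrays. Of these, 21 had a mean log2 of 6 or more, 12 higher and 9 lower, which is 0.245% of the probe sets at that level. The arrays of the 2 groups did not overlap for any of the 28, while 8.87% of all probe sets, and 7.45% of those with a mean log2 of 6 or more, were without overlap. An unadjusted p under 0.05 was found for 894 probe sets (4.76%; 2.48% higher and 2.28% lower), where 938 would be counted with no difference at all. Among probe sets with a mean log2 of 6 or more the median size of the difference was 0.12 and the median standard error 0.19, and 40 differed by more than 1 on the log2 scale. The count was 6 when limma was run on the 6 arrays alone and 0 by the methods' t-test after Benjamini-Hochberg adjustment, so the shared estimate of spread over 18 arrays carries most calls.

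**Figure D1:**
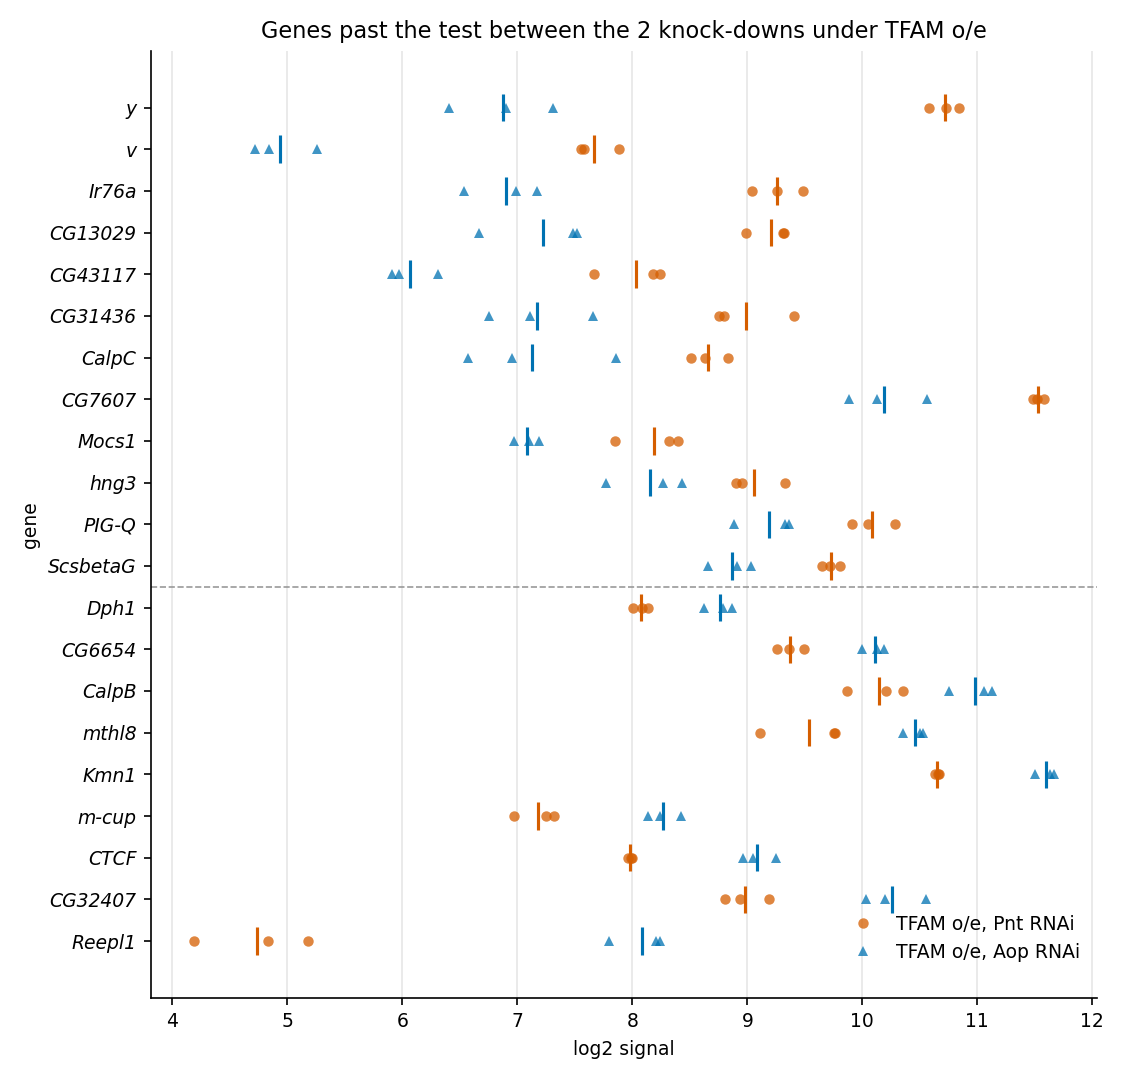
Log2 signal (x axis) of the 21 genes with a mean log2 of 6 or more that passed the test, with 1 point for each of the 3 Pnt-labelled (circles) or 3 Aop-labelled (triangles) arrays under TFAM o/e and bars at the group means. The 12 genes above the dashed line were higher in the Pnt-labelled arrays and the 9 below it lower. No row has overlap, which was a condition for being named.

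Among the 21 brighter calls the largest difference was in y (yellow), whose protein is needed for black pigment of the cuticle. It read 10.58, 10.84 and 10.73 in the Pnt-labelled arrays against 6.41, 6.90 and 7.31 in the Aop-labelled ones, a difference of 3.84 (standard error 0.27, limma adjusted p = 3.64e-07). All 3 Pnt-labelled arrays stood far above the 3 others, which in turn lay above every array of TFAM o/e alone (5.75 to 6.14), by 0.94 in the mean without passing that test (limma adjusted p = 0.599). The same order held for v (vermilion), the tryptophan dioxygenase of brown eye pigment synthesis, at 7.58, 7.88 and 7.55 against 4.84, 4.72 and 5.26, a difference of 2.73 (standard error 0.34, limma adjusted p = 0.00081). The Aop-labelled v signals are near or under log2 5, and the difference was 2.58 with signals under 32 (log2 5) set to 32. Lines with a JF number come from a transgenic RNAi collection whose vectors carry v as the visible marker and whose landing sites are marked with y. For these genes transgene-borne and endogenous signal cannot be told apart. Both genes were high in all 6 arrays titled Pnt RNAi, with TFAM o/e or without it, and lower without overlap in the other 12. Their levels thus followed the titles, and the source of the signal was not tested.

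Other calls can be placed by setting each knock-down against the same 3 TFAM o/e arrays, which both comparisons therefore share. In the first, TFAM o/e, Pnt RNAi minus TFAM o/e, 30 probe sets passed (0.16%), and in the second, TFAM o/e, Aop RNAi minus TFAM o/e, 18 (0.0959%). Of the 28 calls, 14 passed only in the first, 6 only in the second, 0 in both and 8 in neither. A call in one and not in the other does not show by itself that the sides differ, but the direct test between them is the one that defined the 28.

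Among those called against TFAM o/e on the Pnt side, CTCF, which encodes a chromatin insulator protein, had little spread within groups. The probe set called read 7.96, 8.0 and 7.99 in the Pnt-labelled arrays and 9.25, 8.96 and 9.05 in the Aop-labelled ones, a difference of -1.10 (standard error 0.13, limma adjusted p = 0.00035), with TFAM o/e alone at 8.89 to 9.05. Signal was thus low in the Pnt-labelled arrays and at the TFAM o/e level in the Aop-labelled ones. The gene has other probe sets, and they did not all move. One differed by -0.89 without passing (limma adjusted p = 0.0807, and 0.0438 with the block). The brightest read 9.49 to 9.92 against 9.69 to 10.04, a difference of -0.12 (95% interval -0.43 to 0.20). The fall was therefore not seen by every probe set of CTCF.

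Mocs1, which acts at the first step of molybdenum cofactor synthesis, was higher in the Pnt-labelled arrays, at 7.85, 8.32 and 8.40 against 7.19, 7.10 and 6.97. The difference was 1.10 (standard error 0.17, limma adjusted p = 0.00759), and the Aop-labelled arrays lay just above the TFAM o/e arrays, which were at 6.62 to 6.87. The call was lost after median centring (limma adjusted p = 0.124) and without the Pnt-labelled array 2 (0.0703) or 3 (0.0954), with differences of 1.06, 1.04 and 1.00. Of the cofactor genes measured, Mocs1 was the 1 of 3 that passed: mal, which encodes the cofactor sulfurase, differed by -0.06 and ry (rosy), the xanthine dehydrogenase that uses the cofactor, by 0.33. Like y and v, Mocs1 also differed between the knock-downs without TFAM o/e (1.63). Effects of the inserted transgene and of the knock-down cannot be told apart for it.

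PIG-Q, part of the enzyme that starts glycosylphosphatidylinositol anchor synthesis, was higher in the Pnt-labelled arrays (9.91, 10.05 and 10.28 against 8.88, 9.36 and 9.33). Dph1, an enzyme of the diphthamide modification of elongation factor 2, was lower there (8.01, 8.08 and 8.14 against 8.62, 8.79 and 8.87). In both the Aop-labelled arrays overlapped TFAM o/e alone and the Pnt-labelled ones stood apart, with differences of 0.89 (limma adjusted p = 0.024) and -0.68 (limma adjusted p = 0.0337).

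Further genes moved on this side, several of them known only by annotation numbers. CG32407 fell by 1.28 on the log2 scale (8.81, 8.94 and 9.19 against 10.55, 10.03 and 10.20), and CG6654 fell by 0.74 (9.26, 9.49 and 9.36 against 10.00, 10.13 and 10.19). CG43117 was higher by 1.97 (7.67, 8.18 and 8.24 against 5.97, 5.91 and 6.31), and hng3 (hinge3) was higher by 0.90 (9.33, 8.95 and 8.90 against 8.43, 7.77 and 8.27). For each of these 4 the Pnt-labelled arrays were the ones away from TFAM o/e alone, and limma's adjusted p lay between 0.00273 and 0.0487.

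CG31436 was also called on the Pnt side, with another pattern across genotypes. It read 8.75, 8.80 and 9.41 in the Pnt-labelled arrays and 7.66, 6.75 and 7.11 in the Aop-labelled ones, a difference of 1.81 (standard error 0.30, limma adjusted p = 0.00943). In the arrays labelled Pnt RNAi without TFAM it read 7.63, 6.85 and 7.02, where control arrays and Aop RNAi alone lay between 6.63 and 7.55. The 3 highest arrays of the series were thus those labelled with both TFAM o/e and Pnt RNAi.

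On the Aop side, Ir76a, a member of the ionotropic receptor family of chemosensory receptors, was low in the Aop-labelled arrays. It read 9.04, 9.26 and 9.48 in the Pnt-labelled arrays and 7.17, 6.99 and 6.54 in the Aop-labelled ones, a difference of 2.36 (standard error 0.20, limma adjusted p = 4.25e-06). Here the Pnt-labelled arrays were near TFAM o/e alone (9.32 to 9.66) and the Aop-labelled ones below it. Its probe set carries the suffix s_at, used where probes match more than 1 transcript, as do the called probe sets of Dph1 and Cyp12a4. No other chemosensory receptor of the 165 measured passed, and only 2 of them had a mean log2 of 6 or more.

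CG7607 and CG13029 followed the same order. CG7607 read 11.58, 11.52 and 11.48 in the Pnt-labelled arrays against 10.13, 10.56 and 9.88 in the Aop-labelled ones, a difference of 1.34 (standard error 0.15, limma adjusted p = 0.000326). Its level was 11.56 to 11.83 with TFAM o/e alone and 10.26 to 10.42 in the control, so the Pnt-labelled arrays sat near the former and the Aop-labelled arrays around the latter. CG13029 read 8.99, 9.31 and 9.32 against 6.67, 7.52 and 7.48, a difference of 1.98 (standard error 0.26, limma adjusted p = 0.00109).

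Reepl1 and Kmn1, the remaining named genes called on the Aop side, are neighbours on the X chromosome with 0 protein-coding genes between them in the RefSeq Release 6 annotation. Reepl1, a member of the REEP family of endoplasmic reticulum membrane proteins, read 5.18, 4.19 and 4.83 in the Pnt-labelled arrays and 7.80, 8.24 and 8.21 in the Aop-labelled ones, a difference of -3.35 (standard error 0.45, limma adjusted p = 0.0013). Since 2 of those Pnt-labelled signals are under log2 5, the size depends on the floor, and it was -3.02 with signals under 32 set to 32. Kmn1, a kinetochore component, read 10.66, 10.67 and 10.63 against 11.63, 11.67 and 11.50, a difference of -0.95 (standard error 0.11, limma adjusted p = 0.000427). In both genes the 3 Aop-labelled arrays exceeded every other array of the series: the highest of the other 15 was 5.18 for Reepl1 and 11.10 for Kmn1. The genes on their outer sides, CG11699 and CG11696, differed by -0.13 and -0.16 and did not pass.

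Of the 21 brighter calls, 5 passed on neither side against TFAM o/e. ScsbetaG, a subunit of the succinyl-CoA ligase of the tricarboxylic acid cycle, read 9.81, 9.72 and 9.65 in the Pnt-labelled arrays and 8.91, 9.03 and 8.66 in the Aop-labelled ones, with TFAM o/e alone at 9.58 to 9.73. The difference of 0.86 (limma adjusted p = 0.0365) was seen with this probe set alone, since another of the gene read 7.56 to 8.61 against 7.92 to 8.71 and the remaining one was dim.

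CalpC and CalpB, both named here because they were called, belong to the calpains, calcium-dependent proteases. CalpC, held to be a member without protease activity, read 8.51, 8.83 and 8.63 in the Pnt-labelled arrays against 6.95, 7.86 and 6.57 in the Aop-labelled ones, a difference of 1.53 (limma adjusted p = 0.0425). CalpB read 9.87, 10.35 and 10.21 against 10.75, 11.13 and 11.06, a difference of -0.84 (limma adjusted p = 0.0286). No overlap between the groups was a condition for being named, so it adds nothing here. With 1 array left out, the call was lost in 5 of 6 fits for CalpC and in 4 for CalpB.

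The other calls of this kind were mthl8, a receptor of the methuselah family, and m-cup (mann-cup). mthl8 read 9.11, 9.76 and 9.75 against 10.35, 10.50 and 10.53, a difference of -0.92, and its other probe set differed by -0.64 without passing. m-cup read 6.97, 7.32 and 7.25 against 8.24, 8.14 and 8.42, a difference of -1.09. TFAM o/e alone overlapped the Pnt-labelled arrays for both (9.35 to 9.90 in mthl8 and 7.16 to 7.68 in m-cup), and limma's adjusted p was 0.0286 and 0.0289.

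The 7 calls with a mean log2 under 6 rest on low signals, 3 higher and 4 lower. Cyp12a4, a mitochondrial cytochrome P450, had the largest rise among those with a symbol, at 6.95, 7.31 and 7.33 in the Pnt-labelled arrays against 3.65, 4.06 and 4.54. That probe set differed by 3.11 (limma adjusted p = 0.00322), but another one of the gene, at a mean of 7.86, differed by 0.28 and did not pass. Cyp12a5, the adjoining gene of the same family, read 3.39 against 3.32 in the means. CG18545 read 6.86, 7.29 and 7.16 against 4.06, 4.35 and 4.24. CG3397 read 0.05, 0.33 and 0.00 against 4.01, 5.01 and 4.19, and yellow-e2, a relative of y, 4.97, 3.67 and 3.41 against 6.46, 6.23 and 5.64. The other 3 carry no single gene symbol.

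Just inside the threshold stood CalpC and hng3, and just outside it grim, an inducer of apoptosis. grim read 9.61, 10.17 and 10.18 in the Pnt-labelled arrays against 7.29, 8.69 and 8.74, a difference of 1.75 (standard error 0.35, limma adjusted p = 0.051). With the block, whose pairing was taken from these same data, limma's adjusted p was 0.00111, which is no independent support. The groups did not overlap, and both Aop-labelled and Pnt-labelled arrays with the number 1 were the lowest of their group. Of the other measured members of the apoptosis and JNK list, 12 in number, none passed: skl (sickle), which belongs to the same class of inducers, differed by -0.03, and the caspases Dronc and Dcp-1 by -0.26 and -0.24. In the blocked fit 36 probe sets passed, the same 28 among them, and the 8 gained included pnt, grim, SP1173 and kumpel. Nep2, a neprilysin peptidase, and CG7342 were lower, short of the threshold: 7.09, 6.47 and 6.80 against 7.49, 8.40 and 8.46, and 7.29, 7.47 and 7.03 against 8.28, 8.0 and 8.53. Their lack of overlap was a condition for being named. Neither passed (limma adjusted p = 0.115 and 0.139).

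**Figure D2:**
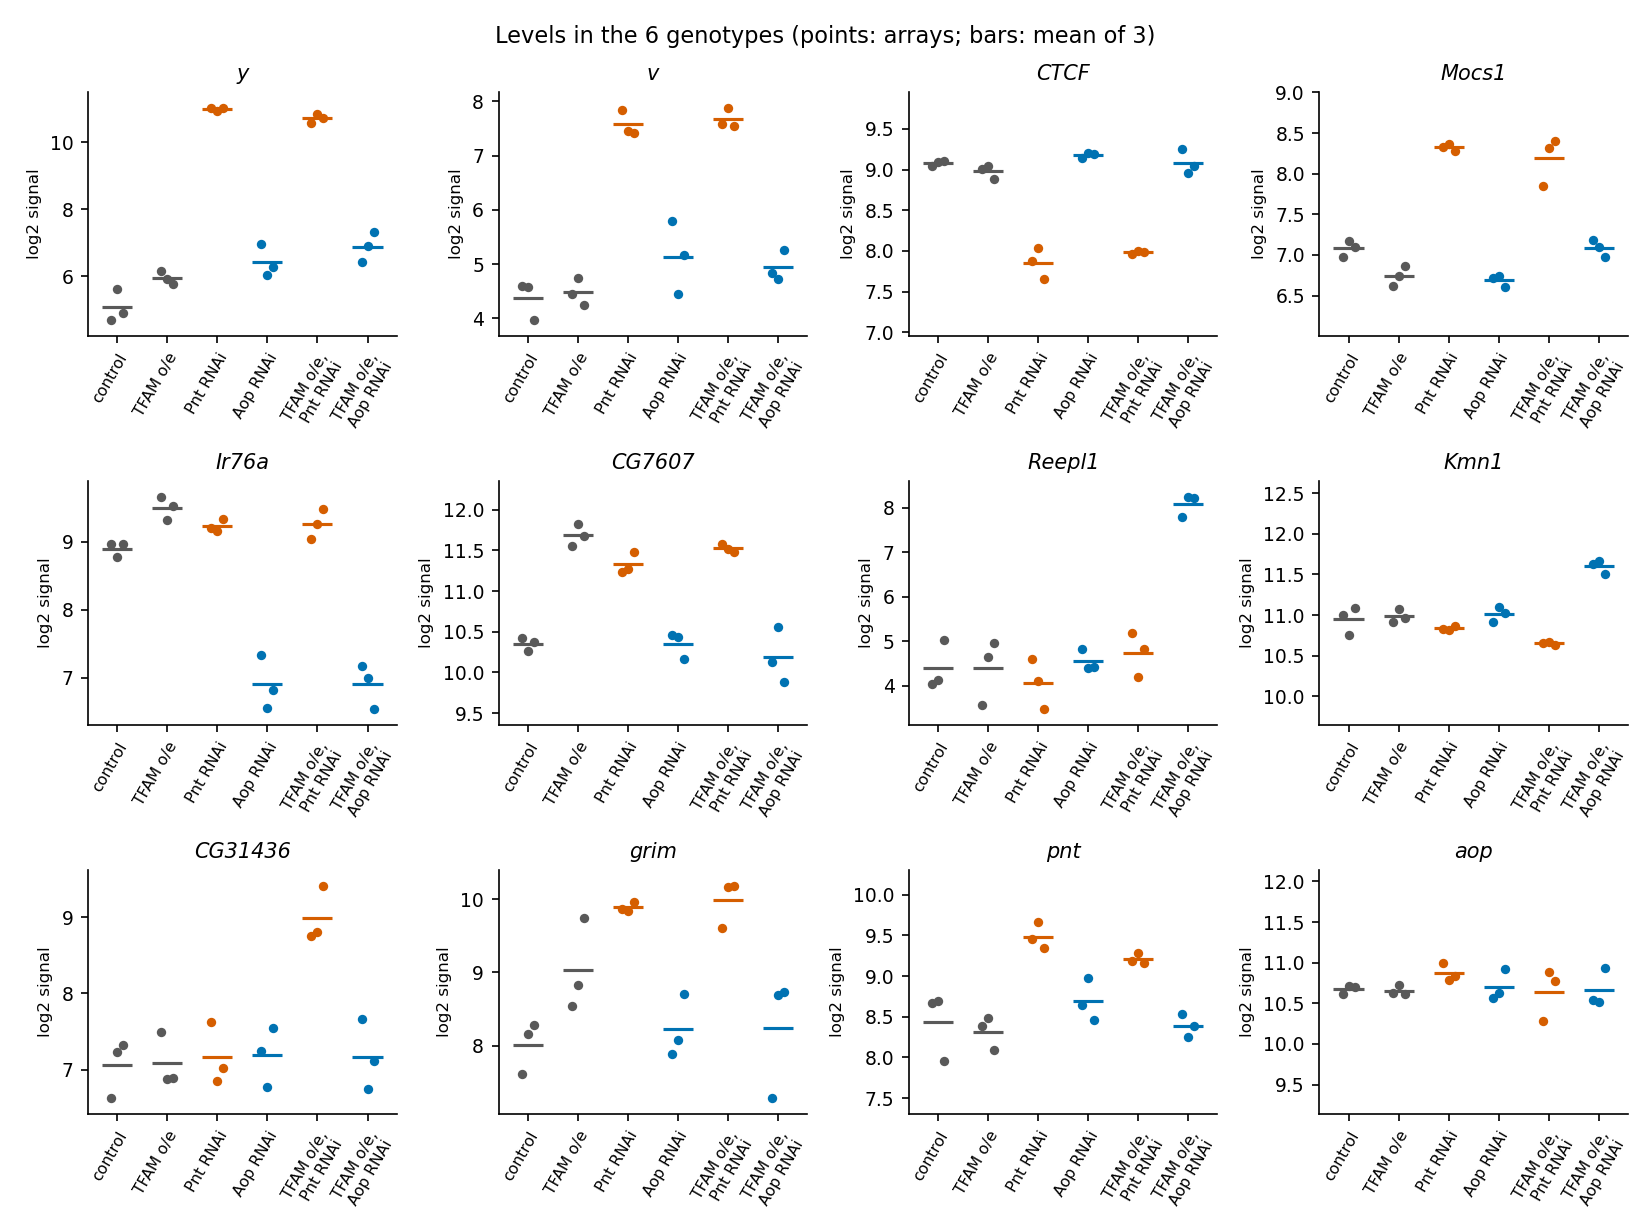
Log2 signal (y axis, a separate range in each panel) of 12 genes in the 6 genotypes as labelled, with 1 point per array and a bar at the mean of 3. In y, v, CTCF and Mocs1 both Pnt RNAi genotypes stand apart, in Ir76a both Aop RNAi genotypes, and in Reepl1, Kmn1 and CG31436 a single genotype that carries TFAM o/e.

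The same pair of knock-downs was also arrayed without TFAM o/e, in 6 samples. They share the RNAi lines with the comparison above but are not the arrays whose means it compares. There, 45 probe sets passed (0.24%, and 4.71% had an unadjusted p under 0.05), 19 higher and 26 lower in the arrays labelled Pnt RNAi. Both tests called 18, in the same direction in each case, which is 64.3% of the 28 and 40% of the 45. Spread in both tests was estimated in the same fit over all 18 arrays, so the 2 sets of calls are not independent. On only the arrays compared, 6 passed under TFAM o/e and 16 without it. Of the 28, 26 had the same sign without TFAM o/e, and the groups did not overlap in that direction for 24, against 10.2% of all probe sets without overlap in either direction. For y the difference was 4.58 without TFAM o/e and 3.84 with it, for v 2.44 and 2.73, for Ir76a 2.33 and 2.36, for CTCF -1.32 and -1.10, and for m-cup -1.17 and -1.09. Most of what separated the knock-downs under TFAM o/e thus also separated them in larvae without it. Over the 8581 probe sets the 2 differences correlated weakly (r = 0.33, rho = 0.10, and r = 0.26 over the 8560 that were no calls), as a description across genes, which are not independent.

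**Figure D3:**
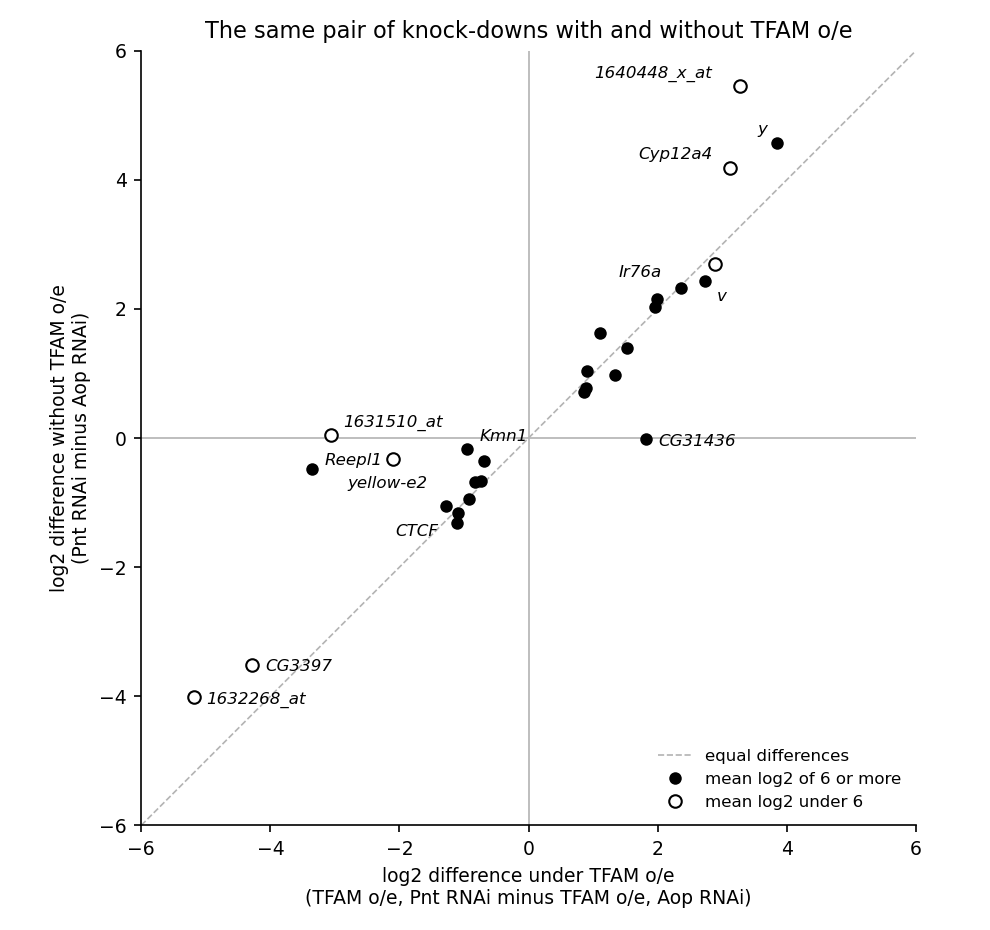
Log2 difference of the 28 calls between the knock-downs without TFAM o/e (y axis, Pnt RNAi minus Aop RNAi) against that under TFAM o/e (x axis), for probe sets with a mean log2 of 6 or more (filled) or under 6 (open). Most points lie near the line of equal differences, while Reepl1, Kmn1, CG31436, yellow-e2 and 1 unnamed probe set lie near 0 on the y axis.

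The 10 calls that did not pass without TFAM o/e were of different kinds. For PIG-Q, CalpC, CalpB and ScsbetaG the difference was of like size (0.77, 1.39, -0.67 and 0.72) and limma's adjusted p lay between 0.0506 and 0.0939. For Dph1 it was -0.36. For Reepl1 (-0.49), Kmn1 (-0.17), CG31436 (-0.02), yellow-e2 (-0.32) and 1 unnamed probe set (0.05) little of the difference was left. Whether the difference between the knock-downs itself depended on TFAM o/e was tested as an interaction, which 3 probe sets passed (0.016%, with 3.77% at an unadjusted p under 0.05), none of them among the 28. The smallest interaction adjusted p among the 28 was 0.263, for Kmn1, so a dependence on TFAM o/e was not established for any of them.

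The calls were unevenly spread over the chromosomes. Of the 25 that have a chromosome arm in the annotation, 11 are on 3L, 8 on 3R and 6 on X, and 0 are on 2L, 2R or 4. Chromosome 3 thus held 76.0% of them and 44.9% of the 13620 placed probe sets. Wider thresholds took the cut-offs of the study's methods (1.5-fold, with an unadjusted p under 0.05) but limma's test, at a mean log2 of 6 or more. By these the share on chromosome 3 was 78.4% (80 of 102). Without TFAM o/e it was 58.8% of the calls (20 of 34) and 53% by the wider thresholds (79 of 149), with 6 calls each on 2L and 2R. For each knock-down set against TFAM o/e, chromosome 3 held 69.6% of the placed calls on the Pnt side (16 of 23). On the Aop side it held 69.2% (9 of 13). The calls on chromosome 3 included CTCF, Mocs1, Ir76a, CG7607, CG13029, ScsbetaG, CalpB, mthl8 and m-cup. pnt lies on 3R and aop on 2L. The 2 RNAi lines were made in different collections, so that the chromosomes brought in with each transgene and the knock-down itself cannot be told apart.

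**Figure D4:**
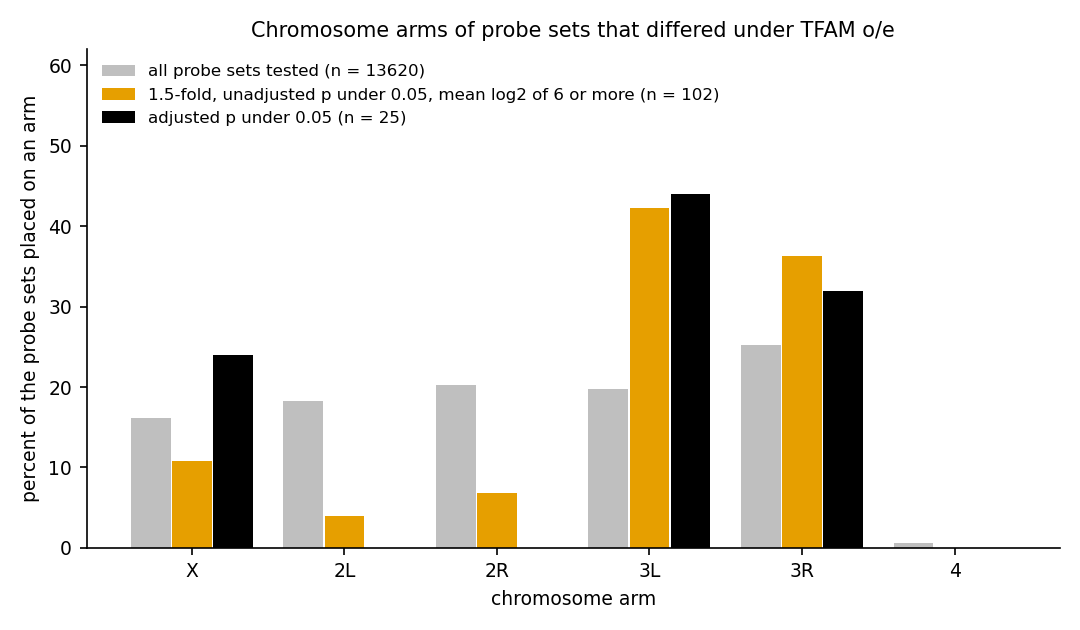
Percent of probe sets on each chromosome arm, among all 13620 placed probe sets, the 102 past the wider thresholds and the 25 placed calls. The black and orange bars stand above the grey ones on 3L and 3R and below them on 2L and 2R, where no call lies.

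Next to the calls in gene order, no further gene passed. The nearest measured genes on either side of the 25 placed calls came to 47 genes that were no calls, and 0 of them passed, while 5 (10.6%) had an unadjusted p under 0.05, against 4.76% of all probe sets. The 5 were pst beside CTCF (-0.53), nkt beside CG7607 (-0.50), PXo beside CG32407 (-0.45), CG4210 beside CG6654 (0.52) and Pdf beside CG43117 (-0.59). They are too few to say that such p-values were more frequent. The sets also differ in level, since 33 of the 47 had a mean log2 of 6 or more, against 45.7% of all probe sets. Except for Reepl1 and Kmn1, no called gene had another as its neighbour, and CalpC and PIG-Q were separated by 5 protein-coding genes.

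The listed genes of the Ras-ERK pathway, through which both targeted factors act, gave no call. Of its receptors, adaptors, kinases and regulators 20 were measured, and 0 passed in either direction, 0 had an unadjusted p under 0.05 and 0 were without overlap, with a median difference of -0.02. Over all probe sets these shares were 0.149%, 4.76% and 8.87%. Counts of 0 in lists of this size therefore do not set the pathway apart from other genes. Ras85D, Raf and rl, the gene of ERK, are not among these 20, so the core of the pathway was covered only in part. Egfr, the epidermal growth factor receptor, had a mean of 6.84 against 7.02 (95% interval of the difference -0.77 to 0.42). Of 24 ligands, target genes and feedback inhibitors 0 passed as well, with a median of 0.00. The feedback inhibitors aos (argos) and sty (sprouty), which are induced by the pathway in other tissues, differed by -0.01 (95% interval -0.31 to 0.29) and 0.07 (-0.36 to 0.50), and the ERK phosphatase Mkp3 by -0.04 (-0.51 to 0.44). aos read 10.01, 10.25 and 10.02 in the Pnt-labelled arrays and 10.36, 9.95 and 10.01 in the Aop-labelled ones, with full overlap. Among ETS factors other than pnt and aop, edl, the antagonist of both, differed by -0.04, Ets65A by 0.29 and Ets97D by 0.00, and none passed.

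Genes followed as readouts of TFAM o/e did not pass. Ldh, the lactate dehydrogenase, read 11.90, 11.76 and 11.75 in the Pnt-labelled arrays and 11.90, 11.84 and 11.88 in the Aop-labelled ones, a difference of -0.07 (95% interval -0.55 to 0.41), where TFAM o/e alone was at 11.79 to 12.09 and control arrays were at 9.90 to 10.81. Thor, the 4E-BP translation inhibitor, differed by 0.00 with a wide interval (-1.17 to 1.17), since its arrays spread from 10.15 to 11.83. Hsc70-2, an Hsp70 relative, read 4.26, 3.72 and 3.92 against 3.63, 0.09 and 3.77, under log2 5 in all 6 arrays, while TFAM o/e alone had 8.68, 8.62 and 8.32. The groups overlapped, and their own difference did not pass. A probe set shared by Hsp22, a mitochondrial small heat shock protein, and CG4456 differed by -0.07.

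Mitochondrial gene lists were nearly level in their medians. Their counts of calls stand beside a share of 0.149% over all probe sets, at which lists of this size would hold few or none. Of 15 tricarboxylic acid cycle genes 1, ScsbetaG, passed, and the median of the list was 0.00. Of the nuclear-encoded subunits of complex I (33), III (9), IV (16) and the ATP synthase (16) 0 passed, with medians of 0.04, 0.08, 0.07 and 0.07, against 0.01 over all 18769 probe sets. The 9 complex IV members with a mean log2 of 6 or more lay between 0.00 and 0.28 (median 0.12), against a median of -0.02 over all such probe sets. Summed signal of the 16 was 42390 to 71110 in the Pnt-labelled arrays and 45980 to 48570 in the Aop-labelled ones, overlapping. Of 69 mitochondrial ribosomal protein genes 0 passed (median -0.01), and mRpL45 and mRpS6 had the lowest values, both at -0.53. Of 14 genes of the ATF4 and amino acid stress response 0 passed (median -0.03). Among 14 mitochondrial chaperones and proteases 0 passed, with Trap1, a mitochondrial Hsp90, at -0.25.

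Cytosolic ribosomal protein genes leaned higher in the Pnt-labelled arrays, with 0 of 41 past the test and a median of 0.26 over the 35 with a mean log2 of 6 or more. That lean belongs to 1 array: their median level was 14.16, 12.94 and 13.28 in the Pnt-labelled arrays and 13.16, 13.07 and 13.28 in the Aop-labelled ones. Without the Pnt-labelled array 1 the median difference was -0.07, and after quantile normalization it was 0.03.

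Neuronal lists also held no call. As only 0.149% of all probe sets passed, counts of 0 do not set lists of this size apart. Of 24 presynaptic genes 0 passed (median 0.10), of 22 voltage-gated channel genes 0 (median -0.08), and of 17 genes of transmitter synthesis and transport 0 (median 0.07). Of 28 neuropeptide precursors 0 passed, and Pdf, the peptide of clock neurons, was without overlap at 9.66, 10.27 and 10.15 against 10.55, 10.48 and 10.83, a difference of -0.59 (limma adjusted p = 0.73). Ilp3, an insulin-like peptide of the brain, read 9.94, 10.15 and 9.96 against 9.85, 9.56 and 9.63, also without overlap, a difference of 0.34 (limma adjusted p = 0.677). Neither difference passed.

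Markers of the cell types and tissues that the dissection could hold were compared as summed signal. The 8 pan-neuronal markers summed to 12930 to 13700 in the Pnt-labelled arrays and 12130 to 13310 in the Aop-labelled ones, the 13 glial markers to 29250 to 32670 and 24470 to 33200, and the 16 neuroblast genes to 22530 to 25130 and 18740 to 25180. All 3 ranges overlapped, and 0 members passed, where 0.149% of all probe sets did. Fat body markers (5 genes) summed to 5665 to 17020 against 6600 to 7602, salivary gland genes (20) to 1536 to 2091 against 987.9 to 3333, and muscle genes (7) to 495.6 to 605.4 against 570 to 813.5, again with 0 calls. The higher value for fat body in 1 group overlapped the other, and its part in the calls was not tested.

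**Figure D5:**
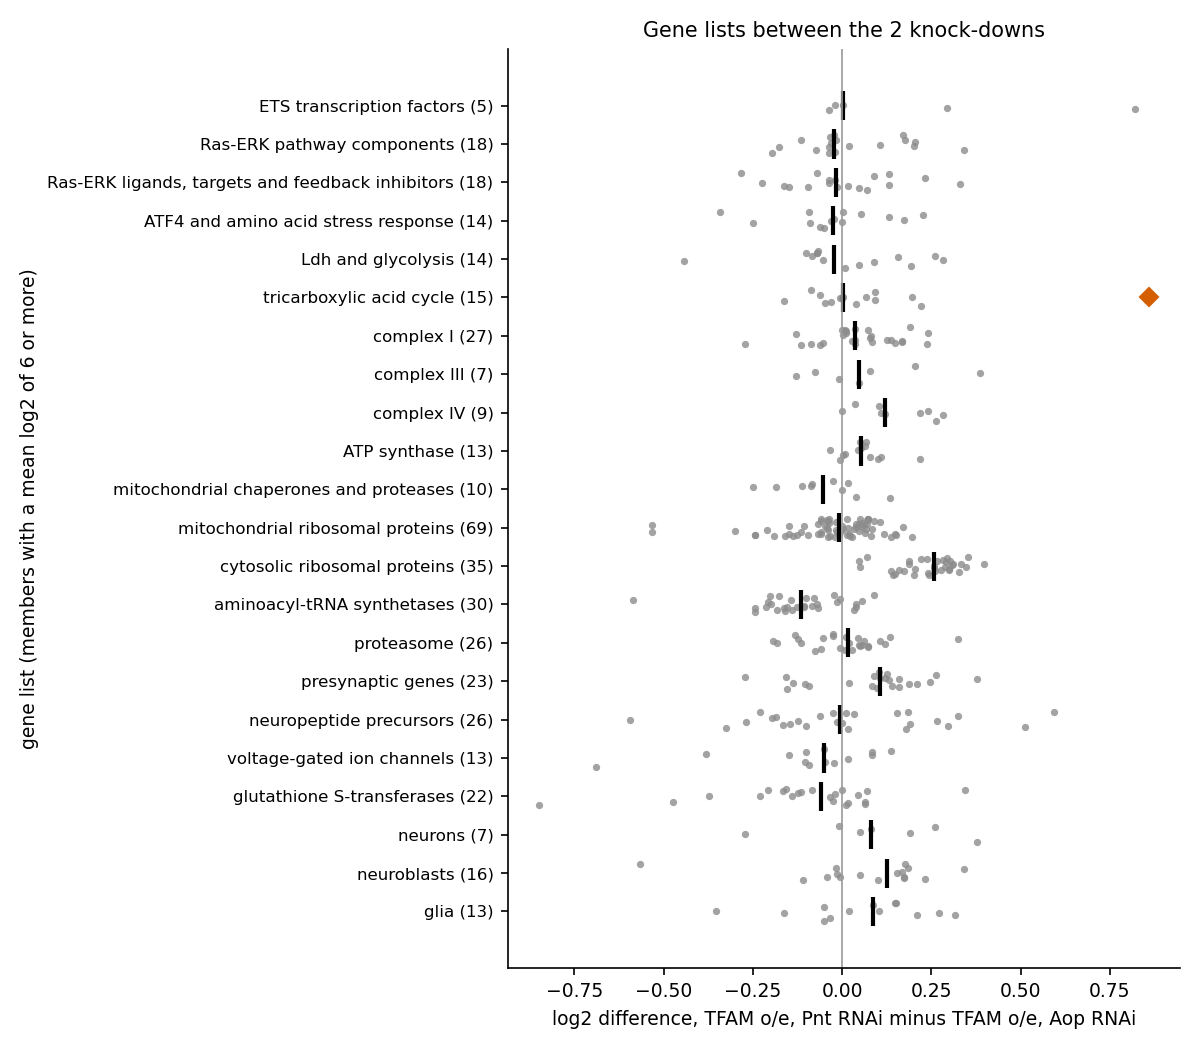
Log2 difference (x axis, Pnt-labelled minus Aop-labelled arrays under TFAM o/e) of every member with a mean log2 of 6 or more of 22 gene lists, with the number of such members in brackets and a bar at the median. The diamond is ScsbetaG, the single member of these lists past the test, and grey points did not pass.

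Further lists of detoxification and transport had 0 calls among the probe sets that stand for their genes. Such counts are near the share of 0.149% over all probe sets. Of 34 glutathione S-transferases 0 passed, and the largest decrease among the brighter ones was in GstD9 at 7.99, 8.02 and 7.88 against 9.14, 9.27 and 8.03, a difference of -0.85 (limma adjusted p = 0.652). One Aop-labelled array was nearly at the level of the Pnt-labelled ones, and the decrease did not pass. Of 82 cytochrome P450 genes 0 passed by their brightest probe set, beside the second Cyp12a4 probe set given above. Of 17 zinc transporter genes 0 passed, with a median of -0.13.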

How the data were processed

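The arrays were Affymetrix Drosophila genome arrays. Per the labels, the authors computed log2 signals with MAS5 in the Transcriptome Analysis Console, and the deposited log2 values were used without further scaling. MAS5 does not share probe models between arrays, so low signals vary widely. The table has 18952 probe sets, of which 18769 were tested after dropping 183 Affymetrix controls. Symbols came from the platform table, updated by Entrez identifier, and 86 from tables of the paper.

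One mean per genotype was fitted over all 18 arrays with limma 3.58.1 in R 4.3.3 (intensity trend, Benjamini-Hochberg adjustment, threshold 0.05). As nothing says that the RNA samples came from separate cultures, p-values measure the spread between these samples. The labels give replicate numbers 1 to 3. Same-numbered arrays of the 2 groups deviated together (r = 0.497, 0.28 and 0.344), and differently numbered ones had r from -0.448 to 0.252. The numbers were taken to pair the arrays, from these same data and not the labels. The p-values of the blocked fit rest on that choice and are no independent support.

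Named genes were up to 12 rises and 12 falls past the test with no overlap, a mean log2 of 6 or more, 1 symbol and no array at 0, filled by the smallest unadjusted p, plus fixed genes and the first 4 or the called members of each list. Others (grim, pst and the like) were chosen after their values were seen. Members and lists were chosen with earlier results of these data known. A gene is given by its brightest probe set unless stated. Results were recomputed with median centring, with quantile normalization, keeping a mean log2 of 6 or more, with signals under 32 set to 32, with no trend, on only the arrays compared, with the replicate block, by the methods' t-test and without each array in turn. The code was tested on simulated data. Plots were made in Python 3.11.15 with matplotlib 3.10.9. No sequences were used here.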

Additional observations from a re-analysis of the deposited data

Results flagged for a closer look

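The difference between the knock-downs differed with and without TFAM o/e in 3 genes by limma's interaction test (0.016% of 18769 probe sets), and none of the 3 passed between the knock-downs under TFAM o/e. For CG34051 the interaction was 7.19 (standard error 0.77, adjusted p = 0.000394), and 5.67 with signals under 32 (log2 5) set to 32: the arrays labelled Aop RNAi read 9.72, 10.91 and 10.18, and the other 15 lay between 3.04 and 5.98, near or under that floor, so the size is uncertain. For Idgf3, an imaginal disc growth factor, it was 1.57 (standard error 0.20, adjusted p = 0.00245), with 8.32, 8.09 and 7.99 in the arrays labelled Pnt RNAi and 9.57 to 10.14 in the others. For SCAP, which carries the lipid regulator SREBP to its site of cleavage, it was 2.31 (standard error 0.33, adjusted p = 0.00803), with 5.89, 6.32 and 6.80 labelled Pnt RNAi and 8.05 to 9.08 in the others. All 3 passed with any of the 12 arrays left out (adjusted p up to 0.0496). Each group holds 3 arrays, too few to look for single outlying samples.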

How the results depend on the processing

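The 28 calls between the knock-downs under TFAM o/e became 17 after median centring, 18 with no intensity trend, 6 with only the arrays compared and 0 by the methods' t-test, which found 800 probe sets at an unadjusted p under 0.05 and 526 (322 higher, 204 lower) with a 1.5-fold change, the 28 among them. Leaving out 1 array gave 15 to 23. The lowest counts were 15 without the Pnt-labelled array 3, 16 without the Aop-labelled array 2 and 18 without the Pnt-labelled array 2. The other settings gave 23 to 36 and the replicate block 36. All 21 brighter calls kept their direction throughout. y, Ir76a, v and Reepl1 also passed on the 6 arrays alone, and these with CG7607, CTCF, Kmn1, CG13029 and CG32407 passed with any array left out. m-cup and ScsbetaG were lost with each array left out, Dph1, CalpC and hng3 with 5 of 6, CG6654, CalpB and mthl8 with 4, CG43117, CG31436 and PIG-Q with 3, and Mocs1 with 2. pnt passed after quantile normalization (adjusted p = 0.0281). Nep2 passed without the Aop-labelled array 1 (adjusted p = 0.0274). The 19 calls on chromosome 3 became 18, 11, 10, 3, 25 and 0 with quantile normalization, median centring, no trend, the arrays compared, the block and the t-test, and 9 to 16 with 1 array left out (9 without the Pnt-labelled array 3 or the Aop-labelled array 2), while chromosome 2 held 0 to 2 in each setting run. Without TFAM o/e the 45 calls became 16 with only the arrays compared and 21 to 41 with 1 array left out, and the block gave 64. There, replicates of the same number had correlations of 0.199, 0.541 and 0.1, and those of different numbers from -0.38 to 0.168. Median centring moved the median of all probe sets from -0.03 to 0.09 there, and the share of higher calls from 42.2% to 57.1%. For the interaction the 3 calls became 1 after median centring (median of all probe sets -0.14 against 0.02), 1 with no intensity trend, 14 with signals under 32 set to 32, and 3 with any array left out. Of the 21 brighter calls, 16 passed against TFAM o/e, and 10 with median centring, 10 with no intensity trend, 7 with only the arrays compared and 9 to 14 with 1 array left out. The cause was not tested.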
